A study of Mus musculus with 16 samples.

Results

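Extracellular matrix and fibroblast genes were followed in mouse spermatogonial stem cell cultures after siRNA against 3 transcription factors. The set held 45 genes named by function: collagens, adhesive glycoproteins, small proteoglycans, enzymes that crosslink or cut matrix, their inhibitors, and fibroblast receptors and cytoskeletal genes. Each gene was read from the probe set with the highest mean over 16 arrays. Of the 45, 43 were measured, out of 18193 measured genes. Fbn1 and Loxl2 were not analysed here. All 43 exceeded the filter on dim genes and were tested with 11145 genes, each of the 43 lying above the array's own median on all 16 arrays.

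Each of 4 siRNA treatments was read on 4 arrays: a negative control, Etv5 siRNA, Bcl6b siRNA and Pou3f1 siRNA, each applied for 30 hours. All groups shared the C57BL\6 background, an origin in Thy1+ enriched testis germ cells, and serum-free MEMα-based medium with 20 ng/ml GDNF, 150 ng/ml GFRα1 and 1 ng/ml FGF2. The labels call the cells spermatogonial stem cells and mention neither somatic cells nor a feeder layer. No label tells if the replicates were separate cultures, so p-values here measure the spread between these samples, which may be technical. The knockdowns were transient, and the siRNA sequences are not given in the sources used here.

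Fibrillar collagens are secreted as triple helices, cut by proteases and crosslinked by lysyl oxidases into fibres, while type IV collagen, laminins and nidogen build basement membranes. Tenascin C, thrombospondins, periostin and CCN proteins are matricellular: they bind cells and growth factors more than they bear load. Matrix metalloproteinases cut these proteins and TIMPs inhibit the metalloproteinases. In the testis this programme belongs to somatic cells such as peritubular myoid cells and fibroblasts, and cultures of spermatogonial stem cells are commonly grown on mitotically inactive embryonic fibroblasts. In bulk RNA, fewer cells of a type and less RNA per cell cannot be told apart.

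Promoter windows of 250 bases before to 50 after the start of transcription were taken from RefSeq (GRCm38.p6), and 29 of the 43 measured members matched. Those of Tnc, the member called in every knockdown, and of Col4a1 and Col4a2, a divergent pair that shares its promoter, are printed 5′ to 3′ on the gene's own strand. In Tnc (chr4:64046966-64047265, minus strand) capitals mark the octamer ATGCAAAT, the letters bound by POU factors. In Col4a1 (chr8:11312777-11313076, minus strand) and Col4a2 (chr8:11312555-11312854, plus strand) capitals mark the 78 bases that both windows hold, read from opposite strands.
Tnc: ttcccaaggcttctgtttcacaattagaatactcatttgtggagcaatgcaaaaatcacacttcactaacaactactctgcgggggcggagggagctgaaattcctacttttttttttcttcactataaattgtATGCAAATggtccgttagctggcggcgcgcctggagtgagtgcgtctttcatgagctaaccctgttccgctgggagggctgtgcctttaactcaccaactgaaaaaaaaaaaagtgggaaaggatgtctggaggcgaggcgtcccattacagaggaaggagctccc
Col4a1: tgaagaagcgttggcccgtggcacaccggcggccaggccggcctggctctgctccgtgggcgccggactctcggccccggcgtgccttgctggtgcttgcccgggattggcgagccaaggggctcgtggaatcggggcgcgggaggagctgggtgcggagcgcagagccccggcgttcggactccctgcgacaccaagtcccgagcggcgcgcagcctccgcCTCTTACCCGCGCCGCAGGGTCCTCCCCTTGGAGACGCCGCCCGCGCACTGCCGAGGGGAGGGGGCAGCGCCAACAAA
Col4a2: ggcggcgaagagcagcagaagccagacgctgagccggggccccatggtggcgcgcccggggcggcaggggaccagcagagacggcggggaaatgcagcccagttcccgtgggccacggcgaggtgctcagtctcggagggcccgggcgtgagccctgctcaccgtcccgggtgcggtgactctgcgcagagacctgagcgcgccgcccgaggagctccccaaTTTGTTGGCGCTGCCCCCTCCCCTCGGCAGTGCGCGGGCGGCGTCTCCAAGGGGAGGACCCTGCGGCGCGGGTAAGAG

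The octamer was found on either strand in 570 of 32851 windows, or 1.74%, and among the 29 members in Col3a1 and Tnc. The letters CCGGAAGT, bound by ETS factors such as ETV5, were in 3.89% of all windows and in no member window. The letters TTCCNNGAA, bound by BCL6, were in 4.81% of windows and likewise in none of the members. TATAAA was in 13.6% of windows and in 7 members, Ccn1, Col3a1, Mmp3, Postn, S100a4, Thbs2 and Tnc. In the Tnc window TATAAA lies just before the octamer without overlapping it. These are matches of letters and say nothing of binding.

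All 3 target genes were lower in their own group. Etv5 intensity averaged 1099 ± 385 (SD, n = 4) against 2969 ± 84.0 in control (log2 difference -1.49, limma adjusted p = 0.00115). Bcl6b averaged 721 ± 79.4 against 1453 ± 83.1 (-1.01, adjusted p = 1.67e-04), and Pou3f1 averaged 415 ± 71.7 against 661 ± 21.8 (-0.68, adjusted p = 0.00103). Median array intensity ranged from 15.6 to 17.1. One array, Bcl6b knockdown replicate 1, was unlike the rest. Its log2 difference between 3′ and 5′ probe sets was 1.03 for Gapdh, against -0.53 to -0.45 elsewhere, and 3.08 for Actb, against 0.62 to 0.76 elsewhere. On this array 12 of the 43 members lay more than 0.5 log2 units from the mean of the other Bcl6b arrays, as did 34.6% of all tested genes. On any other array 0 to 2 members and 0.431% to 4.73% of genes did. Counts and calls are therefore given with all 16 arrays and without that array, a fit of 15 arrays. Leaving it out does not move the differences of the other knockdowns from control, only the spread they are judged by.

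Of the 43 members, Tnc rose in all 3 knockdowns by 1.41- to 1.68-fold. Col4a2, a basement membrane collagen, fell in Bcl6b and Pou3f1 knockdown, and Col6a3 and the protease inhibitor Timp2 fell in Pou3f1 knockdown, none by more than 1.22-fold. With 16 arrays, limma called 1 member in Etv5 knockdown at an adjusted p under 0.05, against 2.09% of all tested genes. It called 2 members in Bcl6b knockdown, against 3.21% of genes, and 5 in Pou3f1 knockdown, against 2.25%. The shares of members were 2.33%, 4.65% and 11.6%, so the first is near the background and the second rests on 2 genes. By direction, genes called higher and lower were 1.31% and 0.781% in Etv5 knockdown, 1.65% and 1.56% in Bcl6b knockdown, and 1.03% and 1.22% in Pou3f1 knockdown. In Bcl6b knockdown that split, 184 genes higher and 174 lower, became 126 and 617 when each array was centred on its median. Tnc was the member called in Etv5 knockdown, and Col11a1 rose beside it in Pou3f1 knockdown. The 3 comparisons share the 4 control arrays, so a shift common to all 3 can come from those arrays.

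Without Bcl6b knockdown replicate 1, 11 members were called in Etv5 knockdown (9 higher, 2 lower), 10 in Bcl6b knockdown (4 higher, 6 lower) and 15 in Pou3f1 knockdown (3 higher, 12 lower). The background was 9.52%, 10.9% and 11.4% of all tested genes, against 25.6%, 23.3% and 34.9% of the members. By direction, the 9 higher in Etv5 knockdown are 20.9% of the members against 4.58% of genes, and the 12 lower in Pou3f1 knockdown are 27.9% against 7.08%. The background in the other directions was 4.94% lower in Etv5 knockdown, 4.07% higher and 6.87% lower in Bcl6b knockdown, and 4.3% higher in Pou3f1 knockdown. The members also varied less than most genes. Their median residual SD was 0.0935 log2 units with 16 arrays, against 0.134 over all tested genes, and 0.0641 against 0.0841 with 15, so that smaller differences reach a call. Their part in these counts was not tested.

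The shifts were small. The median log2 difference of the 43 members was 0.01 in Etv5 knockdown, against -0.03 over all tested genes. It was -0.05 against -0.01 in Bcl6b knockdown, or -0.04 against -0.04 without replicate 1, and -0.06 against -0.02 in Pou3f1 knockdown. The 4 arrays of Etv5 knockdown lay wholly above the control arrays for 8 members, against 6.9% of genes, and wholly below for 4, against 10.4%. Those of Bcl6b knockdown lay above for 3 members, against 5.25%, and below for 7, against 9.46%. Without replicate 1 the 3 Bcl6b arrays lay above for 6 members, against 8.14%, and below for 15, or 34.9% of the members, against 19.3%. Those of Pou3f1 knockdown lay above for 3 members, against 6.4%, and below for 13, or 30.2% of the members, against 11.7% of genes.

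**Figure D1:**
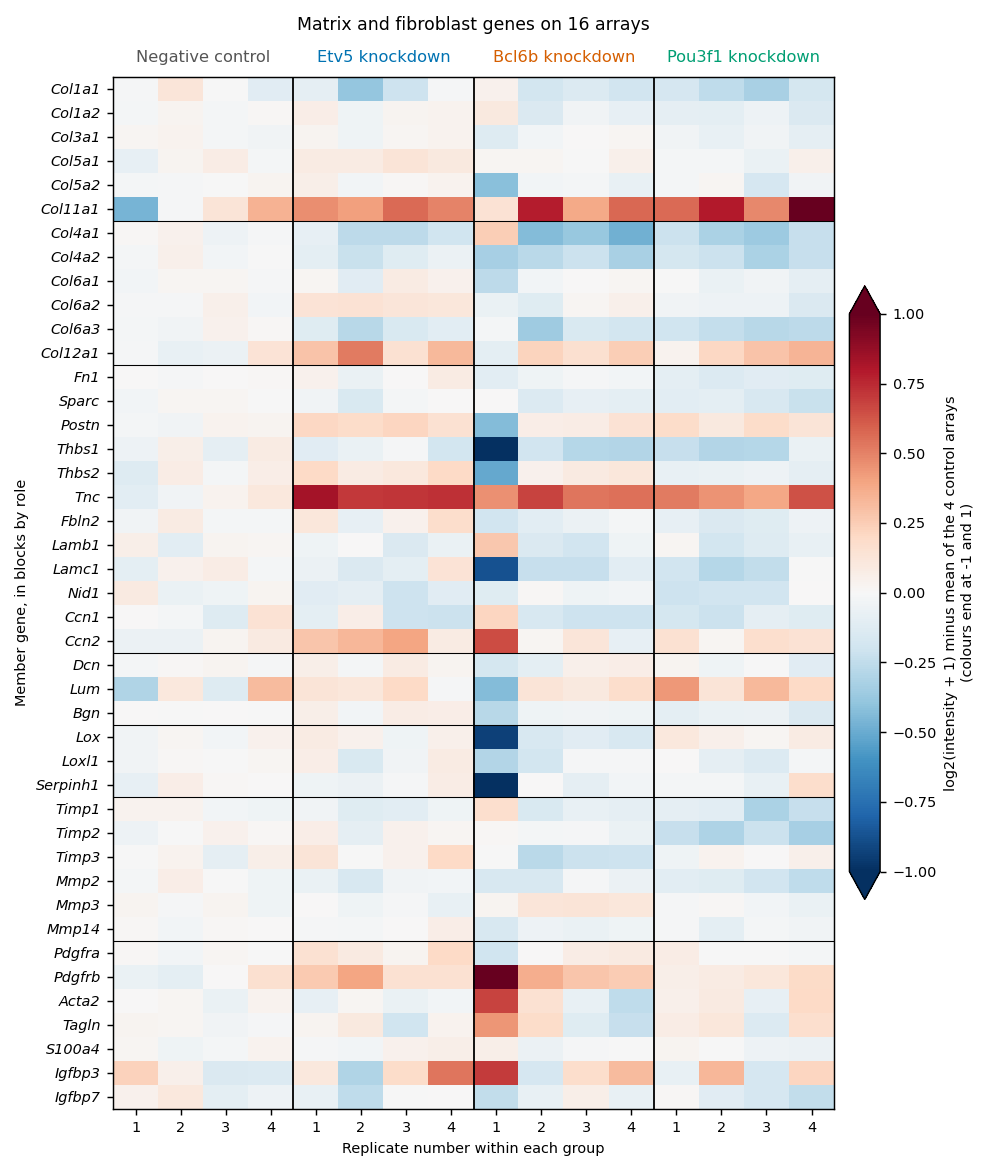
Difference of log2(intensity + 1) of each of the 43 members (vertical axis, in blocks by role) from the mean of the 4 control arrays, on each of 16 arrays (horizontal axis, by group and replicate number), with colours ending at -1 and 1. Tnc is red on all 12 knockdown arrays, and Bcl6b knockdown replicate 1 differs from its 3 neighbours in many genes, among them Thbs1, Lox, Serpinh1 and Pdgfrb.

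Levels in control are intensities of single probe sets, so they describe each gene's signal and give no order of abundance between genes. The 5 brightest members were Col3a1 (42876 ± 1.04e+03, mean ± SD of 4 control arrays), Bgn (19317 ± 68.1), Dcn (17586 ± 245), Col1a2 (17004 ± 279) and Fn1 (16715 ± 123). The dimmest were Lum (59.9 ± 11.4) and Igfbp3 (99.1 ± 12.6). None of the 5 brightest was called in any knockdown with 16 arrays, and of these only Bgn and Fn1 were called without Bcl6b knockdown replicate 1, both lower in Pou3f1 knockdown.

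Among 6 fibrillar collagens, Col11a1, a minor collagen that sets fibril width, rose in Pou3f1 knockdown with 16 arrays, and the others were not called. Col11a1 intensity was 161, 221, 243 and 283 on the control arrays and 306, 295, 329 and 314 after Etv5 siRNA. It was 246, 383, 289 and 331 after Bcl6b siRNA and 329, 385, 311 and 452 after Pou3f1 siRNA. The lowest arrays were control replicate 1 and, among the knockdowns, Bcl6b knockdown replicate 1. The 4 Etv5 arrays and the 4 Pou3f1 arrays all lay above the 4 control arrays, whereas Bcl6b knockdown overlapped control through its replicate 1. The log2 difference from control was 0.71 ± 0.16 (SE) in Pou3f1 knockdown, a 1.64-fold rise (limma adjusted p = 0.0318). It was 0.48 ± 0.16 in Etv5 knockdown (adjusted p = 0.206) and 0.47 ± 0.16 in Bcl6b knockdown (adjusted p = 0.134). Without Bcl6b knockdown replicate 1 all 3 passed, at adjusted p = 0.00253, 0.0352 and 0.0193. The second probe set of Col11a1 differed from control by 0.08, 0.15 and 0.20 in Etv5, Bcl6b and Pou3f1 knockdown. The rise in Pou3f1 knockdown was lost without control replicate 1 (adjusted p = 0.0996), 2 (0.0907) or 3 (0.0687), without Pou3f1 knockdown replicate 2 (0.102) or 4 (0.106), and without the filter on dim genes (0.0531).

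No other fibrillar collagen was called with 16 arrays. Col1a1 intensity was 6411, 7019, 6426 and 5973 on the control arrays and 6042, 4926, 5588 and 6398 after Etv5 siRNA. It was 6629, 5685, 5860.4 and 5660.1 after Bcl6b siRNA and 5728, 5406, 5155 and 5712 after Pou3f1 siRNA. The Pou3f1 arrays all lay below control, while the other knockdowns overlapped it. Col1a1, the main chain of type I collagen, differed by -0.23 ± 0.08 in Pou3f1 knockdown, called only without Bcl6b knockdown replicate 1 (adjusted p = 0.0251, against 0.176 with 16 arrays). A dimmer Col1a1 probe set gave -0.06 there and overlapped control, and the mean over probe sets was at -0.15 (limma adjusted p = 0.878). Col1a2 intensity was 16777, 17311, 16757 and 17170.4 on the control arrays and 17794, 16478, 17305 and 17383 after Etv5 siRNA. It was 18217, 15388, 16562 and 16100.3 after Bcl6b siRNA and 15978, 15903, 16374 and 15404 after Pou3f1 siRNA. Col1a2, the partner chain, was lower than every control array on all Pou3f1 arrays, by -0.10 ± 0.05, and was called in neither fit (adjusted p = 0.411 and 0.0549).

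Col3a1 intensity was 43431, 44036, 42251 and 41787 on the control arrays and 43750.2, 41543, 43451 and 43977 after Etv5 siRNA. It was 39306, 42094, 43039.8 and 43489.8 after Bcl6b siRNA and 41908, 40819, 41836 and 40345 after Pou3f1 siRNA. Col3a1, the chain of type III collagen, overlapped control in each knockdown, with log2 differences of 0.01 ± 0.04, -0.03 ± 0.04 and -0.06 ± 0.04 in Etv5, Bcl6b and Pou3f1 knockdown. Col5a1 and Col5a2, the chains that nucleate collagen fibrils, were called in no knockdown. Their control arrays spanned 4875 to 5414 and 7275 to 7519.7, and their log2 differences ran from -0.13 to 0.10. The lowest Col5a2 value, 5495, was on Bcl6b knockdown replicate 1. All Bcl6b arrays of Col5a2 lay below control, at -0.13, or -0.04 without that replicate. A dimmer Col5a2 probe set also lay below control there, at -0.34 with or without it. Col5a1 lay above control on all Etv5 arrays, at 0.10. Its other probe sets gave -0.12 and -0.15 there, overlapping control, and lay below control on all Pou3f1 arrays, at -0.23 and -0.29.

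Type IV collagen genes, which share the promoter printed above, read below control on nearly all knockdown arrays. Col4a2 intensity was 3895, 4075, 3875 and 3926 on the control arrays and 3692, 3374, 3621 and 3786 after Etv5 siRNA. It was 3128, 3262, 3387 and 3155 after Bcl6b siRNA and 3488, 3399, 3173 and 3358 after Pou3f1 siRNA. All arrays of every knockdown lay below all control arrays. Col4a2 fell by 0.29 on the log2 scale in Bcl6b knockdown (SE 0.05, limma adjusted p = 0.00195) and by 0.23 in Pou3f1 knockdown (SE 0.05, adjusted p = 0.0107). In Etv5 knockdown it differed by -0.12 ± 0.05 and was not called with 16 arrays (adjusted p = 0.249) or 15 (0.0543). Without control replicate 2 the Pou3f1 difference was -0.22, at adjusted p = 0.0516.

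Col4a1 intensity was 7413, 7577, 7099 and 7282 on the control arrays and 6926, 6135, 6135 and 6399.8 after Etv5 siRNA. It was 8717, 5439, 5643 and 5263 after Bcl6b siRNA and 6329, 5882, 5717 and 6262 after Pou3f1 siRNA. Col4a1, the partner chain of Col4a2 in basement membrane, was below control on every knockdown array but Bcl6b knockdown replicate 1, which was the highest of all 16. With 16 arrays it was called in no knockdown. Without that array it fell in each, by 0.43 in Bcl6b knockdown (adjusted p = 9.47e-06), by 0.28 in Pou3f1 knockdown (2.71e-04) and by 0.20 in Etv5 knockdown (0.00563). The Bcl6b difference was -0.26 ± 0.12 with replicate 1. A second Col4a1 probe set, on which replicate 1 did not stand out (1377 against 1387 to 1501), was below control on all knockdown arrays, with log2 differences of -0.24, -0.29 and -0.22 in Etv5, Bcl6b and Pou3f1 knockdown.

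Type VI collagen forms beaded filaments around cells, and its 3 measured chains gave different readings. Col6a3 intensity was 5797, 5715, 6062 and 5903 on the control arrays and 5391, 4849, 5277 and 5449 after Etv5 siRNA. It was 5793, 4582, 5294 and 5170.5 after Bcl6b siRNA and 5107, 4977, 4837 and 4889 after Pou3f1 siRNA. Etv5 and Pou3f1 arrays all lay below control, and so did the Bcl6b arrays other than replicate 1. Col6a3 fell in Pou3f1 knockdown, by 0.24 on the log2 scale (SE 0.06, limma adjusted p = 0.0416), a call close to the threshold. It was lost under 17 of the 26 other settings run, with adjusted p up to 0.139, and passed without Bcl6b knockdown replicate 1 (adjusted p = 0.00142). Without that replicate Col6a3 was also called in Etv5 knockdown (-0.16 ± 0.04, adjusted p = 0.0245) and Bcl6b knockdown (-0.23 ± 0.05, 0.00494).

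Col6a2 intensity was 5307, 5304, 5544 and 5243 on the control arrays and 5882, 5896, 5803 and 5784 after Etv5 siRNA. It was 5109.6, 4915, 5423 and 5549.9 after Bcl6b siRNA and 5224, 5151, 5160.3 and 4840.2 after Pou3f1 siRNA. The Etv5 arrays all lay above the control arrays and the Pou3f1 arrays all lay below them. Col6a2 differed from control by 0.13 ± 0.04 in Etv5 knockdown, called only without Bcl6b knockdown replicate 1 (adjusted p = 0.0375), and by -0.07 ± 0.04 in Pou3f1 knockdown, called in neither fit. Its other probe set gave -0.06 in Etv5 knockdown and -0.21 in Pou3f1 knockdown, so the 2 disagree in sign after Etv5 siRNA. Col6a1 was not called in any knockdown, with control arrays at 12076 to 12497 and differences of 0.01 ± 0.06, -0.06 ± 0.06 and -0.05 ± 0.06.

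Col12a1 intensity was 197, 188, 190.4 and 218 on the control arrays and 241, 284, 219.7 and 248 after Etv5 siRNA. It was 185, 231, 221 and 235 after Bcl6b siRNA and 203, 229, 241 and 250.2 after Pou3f1 siRNA. Col12a1, a fibril-associated collagen that links fibres to other matrix, was above all control arrays on the 4 Etv5 arrays and overlapped control in the other groups. It differed by 0.32 ± 0.10 in Etv5 knockdown, called only without Bcl6b knockdown replicate 1 (adjusted p = 0.0164, against 0.139 with 16 arrays). In Pou3f1 knockdown it differed by 0.22 ± 0.10 and was called in neither fit. Of the 6 non-fibrillar collagens together, 0, 1 and 2 fell and none rose in Etv5, Bcl6b and Pou3f1 knockdown with 16 arrays, and without Bcl6b knockdown replicate 1 the counts were 2, 3 and 3 lower and 2, 0 and 0 higher. Genes called lower were 0.781%, 1.56% and 1.22% of all with 16 arrays and 4.94%, 6.87% and 7.08% with 15, so a count of 0 to 3 among 6 genes is a description only.

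**Figure D2:**
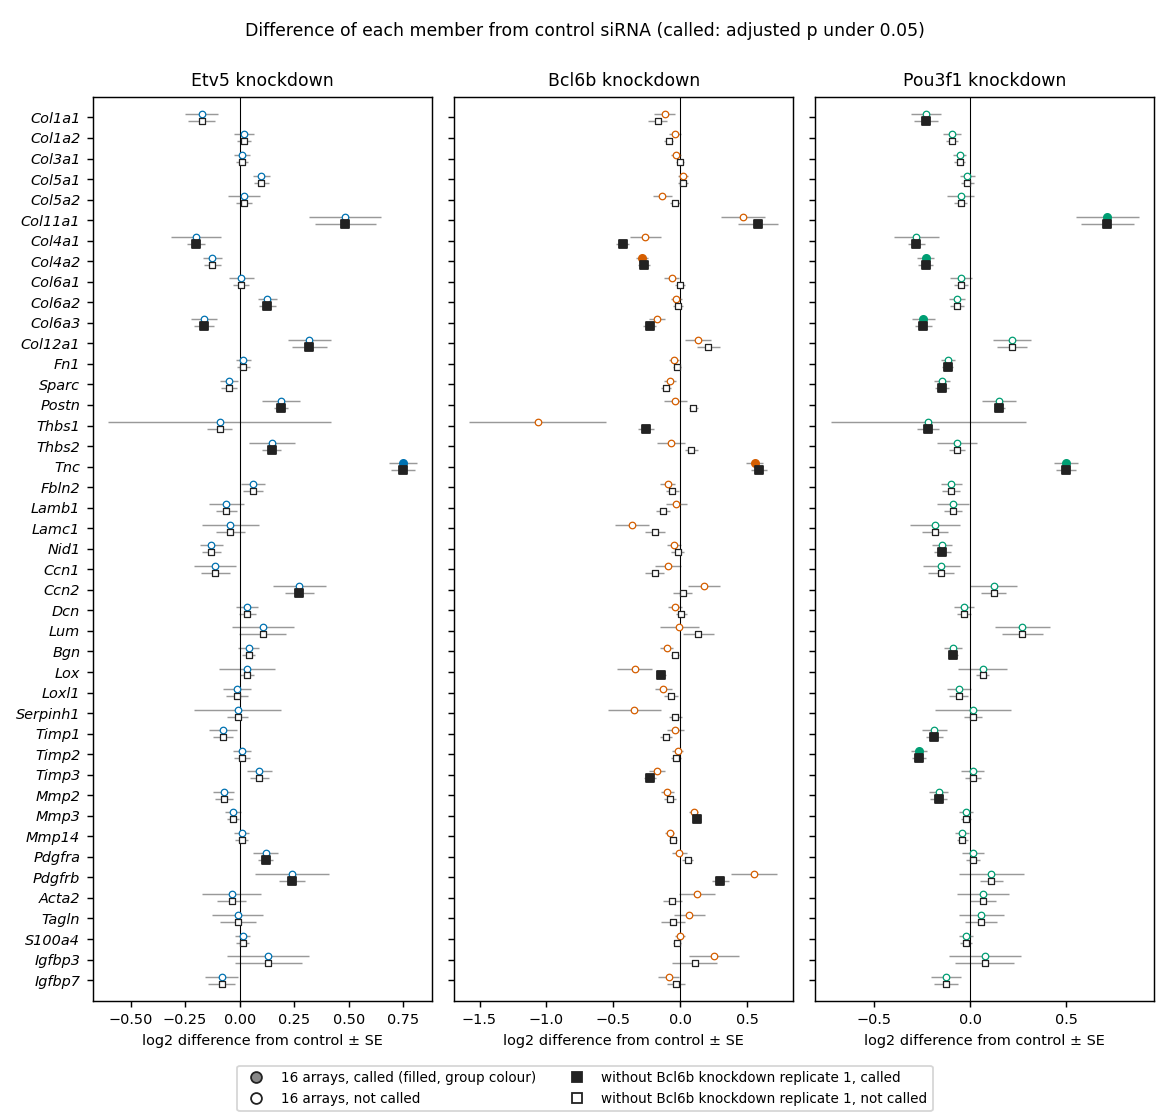
Log2 difference of each of the 43 members (vertical axis) from control in each knockdown (panels; horizontal axis, each panel with its own range), with bars of 1 SE from limma, for 16 arrays (circles) and without Bcl6b knockdown replicate 1 (squares), filled where the adjusted p was under 0.05. Tnc is filled in every panel in both fits, and in Bcl6b knockdown the bar of Thbs1 shrinks from 0.51 to 0.06 when that replicate is left out.

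Tnc encodes tenascin C, a large matricellular protein made in development, wound repair and stromal reaction, and its shift was the largest rise of any member in Etv5 and Bcl6b knockdown. Tnc intensity was 1639, 1725, 1814 and 1899 on the control arrays and 3149.5, 2884, 2907 and 2937 after Etv5 siRNA. It was 2431, 2829, 2565 and 2586 after Bcl6b siRNA and 2532, 2414, 2314 and 2744 after Pou3f1 siRNA. All 12 knockdown arrays lay above the highest control array, and the 4 Etv5 arrays lay above the other knockdowns. The rise was 1.68-fold in Etv5 knockdown (log2 difference 0.75 ± 0.06, limma adjusted p = 1.07e-05), 1.47-fold in Bcl6b knockdown (0.56 ± 0.06, 1.67e-04) and 1.41-fold in Pou3f1 knockdown (0.50 ± 0.06, 3.86e-04). Without Bcl6b knockdown replicate 1 the Bcl6b difference was 0.59 ± 0.06. A dimmer Tnc probe set, at 75.9 in control, gave 0.31, 0.72 and -0.10, so it did not follow the Pou3f1 rise. Only its Bcl6b arrays lay wholly above control, while its Etv5 and Pou3f1 arrays overlapped control. With the mean over probe sets Tnc in Pou3f1 knockdown was at 0.20 (limma adjusted p = 0.533). Etv5 knockdown exceeded Pou3f1 knockdown by 0.25 ± 0.06, called only without Bcl6b knockdown replicate 1 (adjusted p = 0.00888, against 0.0733).

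Postn intensity was 16379.6, 16182, 17010.1 and 16883 on the control arrays and 19163, 18907, 19258 and 18442 after Etv5 siRNA. It was 12307, 17352, 17534 and 18409 after Bcl6b siRNA and 18895, 17796, 18907 and 18201 after Pou3f1 siRNA. Postn encodes periostin, a matricellular protein of collagen-rich tissue. Etv5 and Pou3f1 arrays all lay above control, and so did the Bcl6b arrays other than replicate 1, the lowest of all 16. Postn was called only without that array, at 0.19 ± 0.03 in Etv5 knockdown (adjusted p = 4.87e-04) and 0.15 ± 0.03 in Pou3f1 knockdown (0.00303). In Bcl6b knockdown it was -0.04 ± 0.09 with 4 arrays and 0.10 ± 0.03 with 3, called in neither.

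Thrombospondin 1 and 2 activate latent TGF-beta or restrain vessel growth. Thbs1 intensity was 788, 847, 765 and 861 on the control arrays and 754, 779, 807 and 718 after Etv5 siRNA. It was 71.5, 713, 668 and 664 after Bcl6b siRNA and 695, 665, 666 and 778 after Pou3f1 siRNA. Bcl6b knockdown replicate 1 was far below every other array, also on the second Thbs1 probe set (43.9 against 363 to 392). The difference in Bcl6b knockdown was -1.06 ± 0.51 with that array (adjusted p = 0.264) and -0.26 ± 0.06 without it, where it passed (adjusted p = 0.0126). In Pou3f1 knockdown Thbs1 was at -0.22 ± 0.06 in the 15-array fit (adjusted p = 0.0188), though replicate 4 overlapped control, and in Etv5 knockdown it was not called (-0.09 ± 0.06).

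Thbs2 intensity was 1509, 1738, 1628 and 1723 on the control arrays and 1887, 1748, 1773 and 1889 after Etv5 siRNA. It was 1157, 1698, 1753 and 1781 after Bcl6b siRNA and 1565, 1577, 1587 and 1548 after Pou3f1 siRNA. The 4 Etv5 arrays lay just above the highest control array. Thbs2 differed by 0.15 ± 0.04 in Etv5 knockdown, called only without Bcl6b knockdown replicate 1 (adjusted p = 0.0423), while Pou3f1 knockdown, at -0.07 ± 0.04, and Bcl6b knockdown were not called. The Bcl6b difference turned from -0.07 ± 0.10 with replicate 1 to 0.08 ± 0.05 without it. Etv5 knockdown exceeded Pou3f1 knockdown by 0.22 ± 0.04 in that fit (adjusted p = 0.00502).

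Fibronectin and SPARC, the abundant secreted glycoproteins of fibroblasts, read slightly below control in Pou3f1 knockdown. Fn1 intensity was 16724, 16540.0, 16782 and 16815 on the control arrays and 17199, 15973, 16800.3 and 17702 after Etv5 siRNA. It was 15549, 16251, 16598 and 16394 after Bcl6b siRNA and 15624, 15211, 15482 and 15328 after Pou3f1 siRNA. Every Pou3f1 array lay below every control array. Fn1 differed by -0.12 ± 0.03 in Pou3f1 knockdown, called only without Bcl6b knockdown replicate 1 (adjusted p = 0.0136, against 0.112). A dimmer Fn1 probe set gave 0.11 there, and the mean over probe sets of Fn1 put the difference at -0.0029 (adjusted p = 0.999). Sparc intensity was 12689.5, 13093, 13132 and 12879 on the control arrays and 12649.7, 11662, 12762 and 13016 after Etv5 siRNA. It was 13002, 11779.7, 12241 and 12086 after Bcl6b siRNA and 12024, 12088, 11557 and 11114 after Pou3f1 siRNA. Here too all Pou3f1 arrays lay below control. Sparc differed by -0.15 ± 0.04, again called only in the 15-array fit (adjusted p = 0.0112, against 0.105). A second bright Sparc probe set gave -0.09 there and overlapped control, and the mean over probe sets was at -0.07 (limma adjusted p = 0.726). Neither gene was called in Etv5 or Bcl6b knockdown in either fit.

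Nid1 encodes nidogen 1, which joins laminin to type IV collagen. Nid1 intensity was 11967, 10758, 10922 and 11469 on the control arrays and 10397, 10598, 9781 and 10425 after Etv5 siRNA. It was 10338, 11365, 10937 and 11048 after Bcl6b siRNA and 9785, 9881, 9861 and 11279 after Pou3f1 siRNA. All 4 Etv5 arrays lay below control, at -0.13 ± 0.05, and Nid1 was not called there (adjusted p = 0.319 with 16 arrays and 0.0739 with 15). In Pou3f1 knockdown 3 arrays lay below control and replicate 4 lay within it. Nid1 differed there by -0.15 ± 0.05, called only without Bcl6b knockdown replicate 1 (adjusted p = 0.0417). With the mean over probe sets it was at -0.10 in Pou3f1 knockdown (limma adjusted p = 0.832). Its other bright probe sets gave -0.18, with no overlap with control, and 0.02 there. In Etv5 knockdown the same probe sets gave -0.01 and 0.14, both overlapping control. The laminin chains Lamb1 and Lamc1 and the microfibril-binding Fbln2 were called in no knockdown. Control arrays spanned 3804 to 4249.8 for Lamb1, 672 to 759.7 for Lamc1 and 6786 to 7358 for Fbln2. The lowest Lamc1 value, 395, was on Bcl6b knockdown replicate 1. The other Bcl6b arrays, at 613 to 669, also lay below control. Lamc1 differed there by -0.36, or -0.19 without that replicate. A dimmer Lamc1 probe set gave -0.08, overlapping control, and -0.26 without it.

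Ccn1 and Ccn2, matricellular genes induced by YAP and TGF-beta signalling, both overlapped control in every knockdown with 16 arrays. Ccn1 intensity was 402, 394, 366 and 442 on the control arrays and 373, 419, 347 and 345 after Etv5 siRNA. It was 465, 358, 346 and 346 after Bcl6b siRNA and 353, 344, 375 and 368 after Pou3f1 siRNA. Ccn1 was called in no knockdown, with differences of -0.11 ± 0.10, -0.09 ± 0.10 and -0.15 ± 0.10. Ccn2 intensity was 542, 541, 575 and 601 on the control arrays and 686, 711, 743 and 597 after Etv5 siRNA. It was 887, 571, 614 and 533 after Bcl6b siRNA and 628, 571, 635 and 623 after Pou3f1 siRNA. The highest value was on Bcl6b knockdown replicate 1, and in Etv5 knockdown replicate 4 overlapped control. Ccn2 differed by 0.27 ± 0.07 in Etv5 knockdown, called only in the 15-array fit (adjusted p = 0.0129), and its Bcl6b difference went from 0.18 ± 0.12 to 0.02 ± 0.07 without replicate 1.

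**Figure D3:**
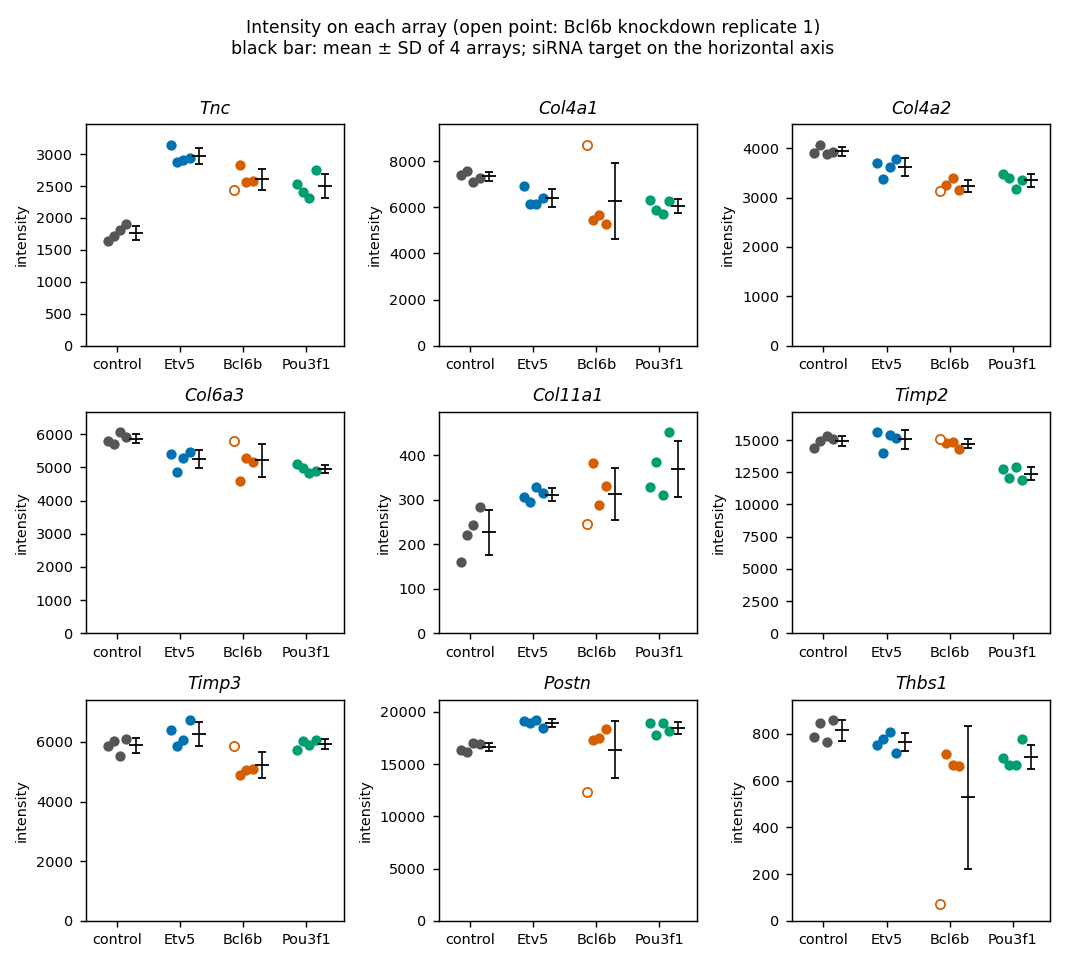
Intensity (vertical axis, from 0) of 9 members on each of the 16 arrays by siRNA target (horizontal axis), with the mean ± SD of 4 arrays in black and Bcl6b knockdown replicate 1 drawn open. Tnc is higher in all knockdowns, Timp2 is lower only on the 4 Pou3f1 arrays (11882 to 12886 against 13999 and more elsewhere), and the open point stands apart for Col4a1, Postn and Thbs1.

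Of the small leucine-rich proteoglycans, which bind collagen fibrils and growth factors, none was called with 16 arrays. Bgn intensity was 19350.3, 19267, 19396 and 19254 on the control arrays and 20089.9, 18903, 20285 and 20235 after Etv5 siRNA. It was 15966, 18727, 18855 and 18699 after Bcl6b siRNA and 18060.2, 18474, 18554 and 17522 after Pou3f1 siRNA. All Pou3f1 arrays and all Bcl6b arrays lay below the control arrays, which spanned a narrow range. Bgn differed by -0.09 ± 0.05 in Pou3f1 knockdown, called only without Bcl6b knockdown replicate 1 (adjusted p = 0.0456), and in Bcl6b knockdown by -0.10 ± 0.05 with replicate 1 and -0.04 ± 0.03 without it, called in neither. Dcn intensity was 17345, 17699, 17875 and 17425 on the control arrays and 18291, 17338, 18566 and 17906 after Etv5 siRNA. It was 15536, 16468, 18235 and 18376 after Bcl6b siRNA and 17946, 17032, 17516 and 16258 after Pou3f1 siRNA. Dcn overlapped control in every group, with differences of 0.04 ± 0.05, -0.04 ± 0.05 and -0.03 ± 0.05. Lum, the dimmest member, ranged from 47.9 to 74 in control and 64.8 to 80.4 in Pou3f1 knockdown and was called in none.

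Collagen crosslinking and folding genes were not called with 16 arrays. Lox intensity was 5657, 5878, 5684 and 5983 on the control arrays and 6144, 5963, 5634 and 6016 after Etv5 siRNA. It was 3033, 5202, 5364 and 5181 after Bcl6b siRNA and 6223, 5993, 5882 and 6144 after Pou3f1 siRNA. Bcl6b knockdown replicate 1 lay far below the other arrays of its group, which themselves lay below all control arrays. Lox, lysyl oxidase, differed in Bcl6b knockdown by -0.34 ± 0.13 with that array (adjusted p = 0.164) and by -0.14 ± 0.04 without it (adjusted p = 0.0138). Serpinh1, the collagen chaperone HSP47, was at 3716, 8907, 8373 and 8738 in Bcl6b knockdown against 8422 to 9315 in control. Its difference was -0.34 ± 0.20 with replicate 1 and -0.04 ± 0.05 without it, called in neither. Loxl1, a lysyl oxidase relative needed for elastic fibres, differed by at most -0.13, in Bcl6b knockdown.

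Of the 3 metalloproteinase inhibitors, Timp2 and Timp3 differed between knockdowns. Timp2 intensity was 14413, 14910.5, 15349 and 15088 on the control arrays and 15619.9, 13999, 15424 and 15176 after Etv5 siRNA. It was 15057, 14753, 14836 and 14277 after Bcl6b siRNA and 12746, 12073, 12886 and 11882 after Pou3f1 siRNA. The 4 Pou3f1 arrays were the lowest of all 16, and the other groups overlapped. Timp2, which inhibits MMP2 and also takes part in its activation, fell 1.21-fold in Pou3f1 knockdown (log2 difference -0.27 ± 0.04, limma adjusted p = 0.00175) and was at 0.01 ± 0.04 in Etv5 knockdown and -0.02 ± 0.04 in Bcl6b knockdown. Tested directly, it was higher in Etv5 than in Pou3f1 knockdown by 0.28 ± 0.04 (adjusted p = 0.00132) and in Bcl6b than in Pou3f1 knockdown by 0.25 ± 0.04 (adjusted p = 0.00267). The second of these was lost under 3 of 26 other settings: median centring (0.19, adjusted p = 0.0596), where Lox, lower in Bcl6b knockdown, was the member called in its place, a fit of only those groups (0.0685), and the mean over probe sets. All 5 bright probe sets of Timp2 were lower in Pou3f1 knockdown, by -0.17 to -0.33, with no overlap with control. On Bcl6b knockdown replicate 1 a probe set of Timp2 read 88.1 against 2550.2 to 2709 on the other arrays of the group. With the mean over probe sets, which takes in that one, the Pou3f1 difference of Timp2 from control was -0.22 at adjusted p = 0.766, and Bcl6b against Pou3f1 knockdown turned to -0.05 (adjusted p = 0.864).

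Timp3 intensity was 5866, 6033, 5520.2 and 6105 on the control arrays and 6411, 5855, 6050.0 and 6744 after Etv5 siRNA. It was 5861, 4885, 5060.4 and 5100.4 after Bcl6b siRNA and 5719, 6015, 5891 and 6079 after Pou3f1 siRNA. Timp3, an inhibitor held in the matrix, was lower on 3 Bcl6b arrays than on any control array, while replicate 1 lay within control. It was higher in Etv5 than in Bcl6b knockdown by 0.26 ± 0.06 (limma adjusted p = 0.0346), against 1.49% of genes called in that comparison. That call was lost under 16 of 26 other settings, 11 of them leaving out 1 of 16 arrays (adjusted p up to 0.127). The highest adjusted p, 0.411, came from a fit of only those groups. Without Bcl6b knockdown replicate 1 the call passed (adjusted p = 4.07e-04). Neither group differed from control by a call with 16 arrays (0.09 ± 0.06 and -0.17 ± 0.06). Without Bcl6b knockdown replicate 1 Timp3 fell there, at -0.23 ± 0.05 (adjusted p = 0.00353). The other bright Timp3 probe sets gave -0.17, -0.10 and 0.04 without that replicate and -0.29, -0.70 and -1.25 with it. All 4 were higher in Etv5 knockdown, by 0.09 to 0.21.

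Timp1 intensity was 8765, 8788, 8416 and 8313 on the control arrays and 8373, 7877, 7944 and 8313 after Etv5 siRNA. It was 9642, 7696, 8154 and 8051 after Bcl6b siRNA and 8055, 7943, 6864 and 7304 after Pou3f1 siRNA. Timp1, an inducible inhibitor, was below all control arrays on the 4 Pou3f1 arrays. It differed there by -0.19 ± 0.06, called only in the 15-array fit (adjusted p = 0.00943). Bcl6b knockdown replicate 1 was the highest of all arrays.

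**Figure D4:**
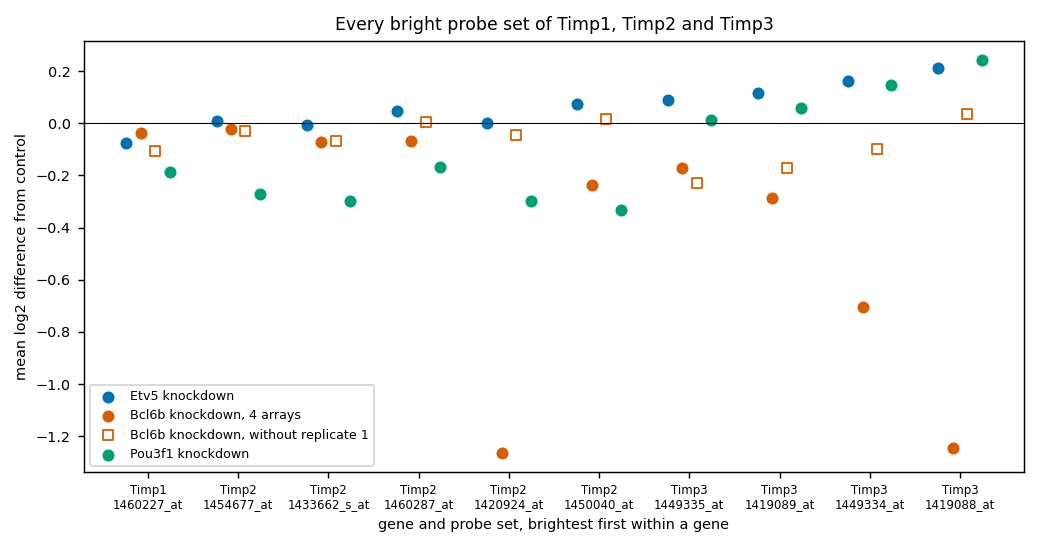
Mean log2 difference from control (vertical axis) of every bright probe set of Timp1, Timp2 and Timp3 (horizontal axis) in Etv5, Bcl6b and Pou3f1 knockdown, with Bcl6b knockdown also drawn without replicate 1 (open squares). The 5 Timp2 probe sets lie between -0.33 and -0.17 in Pou3f1 knockdown, and the lowest Bcl6b points, down to -1.26, move to near 0 when that replicate is left out.

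No metalloproteinase among the members was called with 16 arrays. Mmp2 intensity was 6514, 6917, 6595 and 6415 on the control arrays and 6313, 5908, 6432 and 6489 after Etv5 siRNA. It was 5907, 5911, 6560.2 and 6333 after Bcl6b siRNA and 6156, 6088, 5794 and 5542 after Pou3f1 siRNA. All Pou3f1 arrays lay below control. Mmp2, the gelatinase of fibroblasts, differed by -0.17 ± 0.05 in Pou3f1 knockdown, called only without Bcl6b knockdown replicate 1 (adjusted p = 0.0157). A dimmer Mmp2 probe set gave -0.15 in Pou3f1 knockdown and overlapped control. It lay below control on all Etv5 and Bcl6b arrays, at -0.14 and -0.16, so the knockdowns set apart from control depend on the probe set. Mmp3 intensity was 7711, 7538, 7719 and 7382 on the control arrays and 7591, 7376, 7530.1 and 7220.3 after Etv5 siRNA. It was 7752, 8268, 8311 and 8201 after Bcl6b siRNA and 7542, 7658, 7428 and 7249 after Pou3f1 siRNA. Every Bcl6b array lay above every array of control. Mmp3, stromelysin 1, differed by 0.12 ± 0.03 in Bcl6b knockdown in that fit (adjusted p = 0.0144, against 0.136 with 16 arrays). With each of the 16 arrays centred on its median, that difference was 0.04 (limma adjusted p = 0.563). Mmp3 was the steadiest member, with a residual SD of 0.0364 log2 units. Mmp14, the membrane-bound activator of MMP2, was called in no knockdown, with its lowest value, 8600.1, on Bcl6b knockdown replicate 1. All Bcl6b arrays of Mmp14 lay below control, at -0.08, or -0.05 without that replicate. Its other bright probe sets overlapped control there.

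The PDGF receptors mark mesenchymal cells and drive their growth. Pdgfrb intensity was 2512, 2466, 2634 and 2941 on the control arrays and 3151, 3455, 2929 and 2925 after Etv5 siRNA. It was 6504, 3393, 3195 and 3141 after Bcl6b siRNA and 2738, 2779.8, 2840.4 and 3012 after Pou3f1 siRNA. Bcl6b knockdown replicate 1 was the highest of all arrays. All Bcl6b arrays lay above control, and the Etv5 arrays overlapped it. Pdgfrb was called only without that array, at 0.30 ± 0.06 in Bcl6b knockdown (adjusted p = 0.00477) and 0.24 ± 0.06 in Etv5 knockdown (0.0131), and the Bcl6b difference with it was 0.55 ± 0.17. A second, dimmer Pdgfrb probe set gave -0.01 without that array.

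Pdgfra intensity was 12161, 11832, 12238 and 11999 on the control arrays and 13412, 12839.7, 12319 and 13838 after Etv5 siRNA. It was 10499.7, 12076, 12664 and 12838 after Bcl6b siRNA and 12672, 12047, 12055 and 11902 after Pou3f1 siRNA. The 4 Etv5 arrays lay above all control arrays. Pdgfra differed by 0.12 ± 0.04 in Etv5 knockdown, called only in the 15-array fit (adjusted p = 0.0405), and was called in no other. Its other probe sets gave 0.20, overlapping control, and 0.19 in Etv5 knockdown. With the mean over probe sets Pdgfra was at 0.17 there (limma adjusted p = 0.839). The contractile genes Acta2 and Tagln, the fibroblast marker S100a4 and the secreted IGF-binding Igfbp3 and Igfbp7 were called in no knockdown in either fit. Control arrays spanned 2310.5 to 2475 for Acta2, 752 to 786 for Tagln, 12500.1 to 13199.6 for S100a4, 89.1 to 116 for Igfbp3 and 1787 to 2064 for Igfbp7. The highest Acta2 and Tagln values, 3852 and 1046, were on Bcl6b knockdown replicate 1.

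Compared directly, the knockdowns differed in few members. With 16 arrays Timp3 was the member called between Etv5 and Bcl6b knockdown. Of all genes, 101 were called higher and 65 lower there, or 212 and 47 after median centring. Between Etv5 and Pou3f1 knockdown Timp2 and Col6a2 were called, against 1.44% of genes, with Col6a2 higher in Etv5 knockdown by 0.20 ± 0.04 (limma adjusted p = 0.0242), a call lost under 10 of 26 other settings (adjusted p up to 0.117). Between Bcl6b and Pou3f1 knockdown Timp2 was called, against 2.18% of genes. Of all genes, 161 were called higher and 82 lower in that comparison, or 116 and 215 after median centring. Without Bcl6b knockdown replicate 1 the counts were 6 of 43 against 4.5% of genes, 8 against 6.36%, and 4 against 5.11%. All 8 members called between Etv5 and Pou3f1 knockdown were higher in Etv5 knockdown, against 3.75% of genes: Col1a2, Col6a2, Fn1, Thbs2, Tnc, Fbln2, Bgn and Timp2. Between Etv5 and Bcl6b knockdown Col4a1, Col6a2, Ccn2, Lox and Timp3 were higher in Etv5 knockdown, against 2.91% of genes, and Mmp3 was lower, against 1.6%. Between Bcl6b and Pou3f1 knockdown Timp2 and Mmp3 were higher in Bcl6b knockdown, against 2.88% of genes, and Lox and Timp3 were lower, against 2.23%.

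Other probe sets of the members gave a partial second reading. The 43 genes had 99 probe sets, of which 87 were bright, meaning above the array's own median on at least 4 arrays. Of 31 members with several bright probe sets, all of them had the same sign in Etv5 knockdown for 21 and in Pou3f1 knockdown for 20. In Bcl6b knockdown this held for 16 members, and for 22 without replicate 1. On that array 13 bright probe sets of members read more than 1 log2 unit below the other arrays of the group and 3 read more than 1 above.

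Genes that work with the members were read from lists chosen with earlier results of these data known, in the same 2 fits and against the same shares of all genes. With 16 arrays those shares were 1.31%, 1.65% and 1.03% higher and 0.781%, 1.56% and 1.22% lower in Etv5, Bcl6b and Pou3f1 knockdown. In the 15-array fit they were 4.58%, 4.07% and 4.3% higher and 4.94%, 6.87% and 7.08% lower. Counts in lists this short are a description only. Of 39 tested matrix genes outside the set, 2 rose in Etv5 knockdown, 2 rose in Bcl6b knockdown, and 1 rose and 1 fell in Pou3f1 knockdown with 16 arrays. Without Bcl6b knockdown replicate 1 the counts were 2 higher, then 2 higher and 2 lower, then 2 higher and 1 lower. Col8a1, a short-chain collagen, rose in all 3, by 0.45 ± 0.08, 0.40 ± 0.08 and 0.43 ± 0.08 log2 units (limma adjusted p = 0.00638, 0.011 and 0.0078). Agrn, the basement membrane proteoglycan agrin, rose by 0.28 ± 0.07 in Bcl6b knockdown and differed by -0.35 ± 0.07 in Pou3f1 knockdown, a fall (adjusted p = 0.0396 and 0.0123). Ccn5, a CCN gene, rose by 0.41 ± 0.08 in Etv5 knockdown (adjusted p = 0.0102). Those added in the 15-array fit were the basement membrane genes Col18a1 (-0.29 ± 0.08) and Nid2 (-0.13 ± 0.04), lower in Bcl6b knockdown, and Efemp1 (0.15 ± 0.05), higher in Pou3f1 knockdown.

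Of 21 collagen-processing genes, none was called in Etv5 knockdown, 2 fell in Bcl6b knockdown and 1 fell in Pou3f1 knockdown with 16 arrays. In the 15-array fit 1 fell in Etv5 knockdown, 1 rose and 2 fell in Bcl6b knockdown, and 5 fell in Pou3f1 knockdown. Crtap, part of the prolyl hydroxylation complex, was at -0.36 ± 0.05 in Bcl6b knockdown (limma adjusted p = 5.54e-04 with 16 arrays), and Loxl3, a lysyl oxidase relative, at -0.22 ± 0.05 in Pou3f1 knockdown (adjusted p = 0.0307). Mia3, which helps load collagen for export, differed by -0.14 ± 0.04 in Etv5 and -0.16 ± 0.04 in Pou3f1 knockdown, called only in the 15-array fit (adjusted p = 0.0221 and 0.00893). So were Plod3, Bmp1 and Colgalt1, lower in Pou3f1 knockdown, and P4ha1, higher in Bcl6b knockdown.

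Of 24 matrix proteases, 1 rose in Etv5 knockdown, 1 rose and 1 fell in Bcl6b knockdown, and 1 fell in Pou3f1 knockdown with 16 arrays. In the 15-array fit 2 rose in each knockdown, and 2, 5 and 5 fell in Etv5, Bcl6b and Pou3f1 knockdown. Mmp13, a collagenase, rose by 0.66 ± 0.12 in Etv5 and 0.91 ± 0.12 in Bcl6b knockdown (limma adjusted p = 0.00694 and 4.83e-04 with 16 arrays). Adam9 fell in Bcl6b knockdown and Adam19 fell in Pou3f1 knockdown in both fits. Only in the 15-array fit was Reck, a membrane inhibitor of metalloproteinases, higher in all 3 (0.15 ± 0.04 in Etv5 knockdown, adjusted p = 0.0182), Adam17 lower in Etv5 and Pou3f1 knockdown, and Mmp11 lower in Bcl6b and Pou3f1 knockdown.

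Of 18 integrins and matrix receptors, 1 rose in Etv5 knockdown, 1 rose and 1 fell in Bcl6b knockdown, and none was called in Pou3f1 knockdown with 16 arrays. In the 15-array fit 1 rose in each knockdown, and 1, 4 and 2 fell in Etv5, Bcl6b and Pou3f1 knockdown. Itgb8, whose integrin activates TGF-beta, rose by 0.65 ± 0.14 in Etv5 and 0.77 ± 0.14 in Bcl6b knockdown (limma adjusted p = 0.0194 and 0.00481 with 16 arrays), and by 0.37 ± 0.10 in Pou3f1 knockdown in the 15-array fit (adjusted p = 0.025). Dag1, the laminin receptor dystroglycan, fell in Bcl6b knockdown in both fits. Itga5, a chain of the fibronectin receptor, was lower in all 3 in the 15-array fit, at -0.54 ± 0.15, -0.64 ± 0.16 and -0.53 ± 0.15 (adjusted p = 0.0279, 0.0166 and 0.0281). The hyaluronan receptor Cd44 was lower there in Bcl6b and Pou3f1 knockdown, and Itga8 in Bcl6b knockdown.

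Of 20 TGF-beta pathway genes, the receptor Tgfbr1 rose by 0.33 ± 0.06 in Etv5 and 0.25 ± 0.06 in Bcl6b knockdown with 16 arrays (limma adjusted p = 0.00885 and 0.0365). The ligand Tgfb1 and the inhibitory Smad6 fell in Etv5 knockdown, at -0.46 ± 0.11 and -0.49 ± 0.11, and the ubiquitin ligase Smurf2 fell in Bcl6b knockdown. The 15-array fit added Smad2, higher in Etv5 knockdown, and Smurf1, lower in Bcl6b knockdown, and neither fit called any in Pou3f1 knockdown. Of 23 SRF and YAP pathway genes, which respond to actin and stretch, Tpm4 fell in Bcl6b knockdown, at -0.27 ± 0.06, and no other was called with 16 arrays. In the 15-array fit 1 rose and 1 fell in Etv5 knockdown, 2 fell in Bcl6b knockdown and 4 fell in Pou3f1 knockdown. Wwtr1, the YAP relative TAZ, was lower in all 3, at -0.13 ± 0.03, -0.26 ± 0.03 and -0.14 ± 0.03 (adjusted p = 0.0161, 8.00e-05 and 0.00758). Axl, Srf and Yap1 were lower in Pou3f1 knockdown and Tpm1 was higher in Etv5 knockdown in that fit.

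Of 26 other fibroblast markers, 2 rose in Etv5 knockdown, 1 rose and 1 fell in Bcl6b knockdown, and 2 rose and 1 fell in Pou3f1 knockdown with 16 arrays. In the 15-array fit the counts were 5 higher and 1 lower, 4 higher and 2 lower, and 3 higher and 2 lower. Vim, the mesenchymal intermediate filament, rose in all 3, by 0.33 ± 0.05, 0.29 ± 0.05 and 0.35 ± 0.05 (limma adjusted p = 0.00189, 0.00341 and 9.67e-04 with 16 arrays). Igfbp6 rose in Etv5 knockdown and Igfbp5 in Pou3f1 knockdown, while Cav1 fell in Bcl6b and Csf1 in Pou3f1 knockdown. Mme, a membrane peptidase of stromal cells, was higher in all 3 in the 15-array fit, at 0.32 ± 0.06, 0.35 ± 0.06 and 0.41 ± 0.06. The summed intensity of the 26 was 202058 to 202959 in control, 210380 to 218186 in Etv5 knockdown, 204287 to 213930 in Pou3f1 knockdown, and 194249 to 208977 in Bcl6b knockdown, or 205192 to 208977 without replicate 1. The sums thus lay wholly above control in every knockdown once that array was left out, but a sum of intensities weighs bright genes most. The median log2 difference of the 26 lay within 0.05 of control in each knockdown in both fits. It was positive in Etv5 knockdown and negative in Bcl6b and Pou3f1 knockdown, so the higher sums do not describe the typical marker. The part of these markers in the shifts of the members was not tested.

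Markers of other cells were read beside these results. Germ cell markers were bright, with Dazl at 16637 ± 165, Ddx4 at 6896 ± 178 and Mael at 6671 ± 124 on the control arrays, and 16 of 17 measured were tested. Their summed intensity was 46579 to 47308 in control, 45908 to 47752 in Etv5, 42046 to 47067 in Bcl6b (46043 to 47067 without replicate 1) and 46721 to 49459 in Pou3f1 knockdown. Sohlh1, a regulator of spermatogonial differentiation, rose in Etv5 knockdown, by 0.61 ± 0.09 (limma adjusted p = 0.00116), and no other was called with 16 arrays. In the 15-array fit Zbtb16 and Piwil2 were also higher and Id4 and Sall4 lower in Etv5 knockdown, and Zbtb16 was higher in Pou3f1 knockdown.

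Of 10 Sertoli cell markers 7, Wt1, Gata4, Amh and Fshr among them, lay below the array median on all control arrays, as did 4 of 7 peritubular myoid markers (Myh11, Des, Cnn1, Actg2) and 9 of 10 endothelial markers. Of 5 Leydig cell markers Cyp17a1 and Hsd17b3 were below it, while Cyp11a1 read 2682 and Star 1739. Of 12 macrophage markers 4 were below it, among them Adgre1 and Itgam. The Sertoli sum was 2343 to 2470 in control and lay wholly below that in Etv5 knockdown (2122 to 2192) and Bcl6b knockdown (2123 to 2328), while Pou3f1 knockdown (2054 to 2412) overlapped. Most of that sum was Rhox5, at 1757 in control, against 366 for Sox9 and 219 for Inhbb. In Etv5 and Bcl6b knockdown Rhox5 averaged 1580 and 1636 and Sox9 326 and 309, while Inhbb averaged 225 in both. No Sertoli marker was called with 16 arrays. Of this list Rhox5 was called in Etv5 knockdown, lower by -0.15 ± 0.05 in the 15-array fit (limma adjusted p = 0.0496). The Leydig sum, 4614 to 4792 in control, overlapped control in each knockdown, and the 15-array fit called Star lower in Bcl6b knockdown (-0.21 ± 0.05) and Hsd3b1 higher in Pou3f1 knockdown (0.30 ± 0.08). The myoid sum, 933 to 1007 in control, overlapped it in each knockdown, with its highest value, 1364, on Bcl6b knockdown replicate 1 and no myoid marker called in either fit.

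The endothelial sum was 283 to 311 in control, wholly below that in Etv5 knockdown (126 to 220), wholly above it in Bcl6b knockdown (313 to 401) and 241 to 307 in Pou3f1 knockdown. Plvap, the one endothelial marker tested, made up most of that sum, at 249 in control. It fell in Etv5 knockdown, at -1.30 ± 0.19 (limma adjusted p = 0.00140). The macrophage sum, 775 to 868 in control and 737 to 803 in Etv5 knockdown, overlapped control in each knockdown. Mrc1, a macrophage receptor, fell in Etv5 knockdown, at -1.31 ± 0.20 (adjusted p = 0.00189), and Lyz2 was called there in the 15-array fit (-1.57 ± 0.36, adjusted p = 0.00893). The other tested macrophage markers were not called, with Ptprc at 83.9 against 67.9 in control, Cd68 at 49.0 against 41.1, Cd14 at 155 against 143, Tyrobp at 199 against 188, Csf1r at 16.7 against 17.3 and Fcer1g at 173 against 174, and the median log2 difference of the 8 was 0.04. The part of any of these cells in the shifts of the matrix genes was not tested.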

How the data were processed

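RNA of 16 samples was read on Affymetrix mouse expression arrays, with cDNA primed by oligo(dT), per the labels' protocols. The authors deposited linear intensity, summarised to a value per probe set, from 1.66 to 71511. Affymetrix Expression Console 1.1, Partek 6.4, MAS5 and GCRMA stand in the submitters' processing notes. The sources used here do not give which of MAS5 and GCRMA made the values. Because cDNA was primed at the poly(A) end, probe sets far from the 3′ end depend most on intact RNA.

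Of 45037 probe sets other than controls, 34945 had 1 gene in the platform annotation, 932 several and 9160 none listed; those with several were not named. Each of 18193 genes took its probe set with the highest mean. Genes brighter than the array's median on 4 or more arrays were tested, 11145 in all. Tests used log2(intensity + 1) of the deposited values, which understates the change of dim genes. limma 3.58.1 in R 4.3.3 (lmFit, eBayes with an intensity trend) fitted all 4 groups without covariates. Its two-sided p-values were adjusted by Benjamini-Hochberg across the tested genes, with calls made at an adjusted p under 0.05. No 2 arrays held identical values. Depth is not defined for arrays, where 4 arrays a group limit the precision. The fit was tested on simulated data.

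The 45 members, the lists and the tests were chosen with earlier results of these data known. Per-array values are given for members called in either fit against control, the 5 brightest, and the Timp, Thbs, Col4 and Ccn genes. For the lists, up to 4 called genes per comparison could be named, and further ones (Colgalt1, Mmp11, Cd44, Piwil2 and Reck) were chosen after their values were seen. Alternatives were other scalings, pseudocounts, filters, probe set rules, weights and models, a replicate block, and each of 16 arrays left out. Tables and figures were made with Python 3.11.15 and matplotlib 3.10.9.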

Additional observations from a re-analysis of the deposited data

Results flagged for a closer look

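Among 172 pairs of a member and a group, 17 had an array far from the other 3 of its group, measured as the gap to the nearest array divided by the group's range, above Dixon's 95% critical value for 4 samples. Chance gives such a gap in about 1 of 20 groups. Of the 17, 14 lay on Bcl6b knockdown replicate 1, and 3 lay among the 129 pairs of the other groups. On that array Thbs1 (ratio 0.969), Bgn (0.950), Lox (0.939), Serpinh1 (0.929), Thbs2 (0.890), Lum (0.879), Col5a2 (0.866), Postn (0.853), Mmp14 (0.840), Lamc1 (0.834) and Col6a1 (0.833) were lower than on the other 3. Pdgfrb (0.894), Ccn1 (0.889) and Col4a1 (0.862) were higher. Gapdh and Actb show the same array as the one with the greatest excess of 3′ over 5′ signal, and the part of that excess in these values was not tested. The other 3 were Nid1 on Pou3f1 knockdown replicate 4 (0.931), higher at 11279 against 9785 to 9881, Bgn on Etv5 knockdown replicate 2 (0.863), lower at 18903 against 20090 to 20285, and Fbln2 on control replicate 2 (0.846), higher at 7358 against 6786 to 6871.

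Differences between knockdowns, tested directly with limma over 16 arrays, were found for 3 members. Timp2 was higher in Etv5 than in Pou3f1 knockdown by 0.28 log2 units (adjusted p = 0.00132) and in Bcl6b than in Pou3f1 knockdown by 0.25 (adjusted p = 0.00267). Timp3 was higher in Etv5 than in Bcl6b knockdown by 0.26 (adjusted p = 0.0346). Col6a2 was higher in Etv5 than in Pou3f1 knockdown by 0.20 (adjusted p = 0.0242).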

How the results depend on the processing

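The 8 calls against control with 16 arrays were recomputed under 26 other settings each. Of 208 recomputations 182 stayed called in the same direction, 26 lost the call and 0 turned. Tnc in Etv5 and Bcl6b knockdown and Col4a2 in Bcl6b knockdown were called under every setting run. Col6a3 in Pou3f1 knockdown was lost under 17, Col11a1 under 6, and Timp2, Tnc and Col4a2 there under 1 each. The 28 pairs called only without Bcl6b knockdown replicate 1 turned under no setting. Apart from that setting, which chose them, they were called in 46 of 700 recomputations. Leaving out 1 array at a time gave 1 to 11 called members in Etv5 knockdown, 2 to 10 in Bcl6b knockdown and 2 to 15 in Pou3f1 knockdown, 0 to 6 between Etv5 and Bcl6b knockdown, 1 to 8 between Etv5 and Pou3f1 knockdown and 1 to 4 between Bcl6b and Pou3f1 knockdown. Over all 11145 tested genes the ranges were 128 to 1061, 191 to 1220 and 129 to 1268 against control. Between knockdowns they were 74 to 502, 85 to 709 and 166 to 570, in the same order. The highest count in each, for members and for all genes, came without Bcl6b knockdown replicate 1. Without control replicate 2 the Pou3f1 count was 2, and without control replicate 1 or 3 or Pou3f1 knockdown replicate 2 it was 3. Between Etv5 and Bcl6b knockdown the count was 0 for each of 11 arrays left out, and between Etv5 and Pou3f1 knockdown it was 1 without Etv5 knockdown replicate 1 or 4 or Pou3f1 knockdown replicate 2 or 3.

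Against control, array weights called 14, 15 and 17 members in Etv5, Bcl6b and Pou3f1 knockdown, in place of 1, 2 and 5, against 14.9%, 18.7% and 15.6% of all genes, and between knockdowns 11 (Etv5 and Bcl6b), 10 (Etv5 and Pou3f1) and 8 (Bcl6b and Pou3f1), against 9.26%, 8.56% and 8.15%. Fitting only the 2 groups compared called 9, 2 and 13 in Etv5, Bcl6b and Pou3f1 knockdown, against 8.94%, 0.556% and 10.2% of genes. Between knockdowns it called 0, 4 and 0 in the same order, against 0.0179%, 2.92% and 0.664%. The mean over probe sets called 5 in Bcl6b and 3 in Pou3f1 knockdown, against 3.87% and 1.7%, 0 between Etv5 and Pou3f1 knockdown (1.08%) and 2 between Bcl6b and Pou3f1 knockdown (2.76%). With no filter the count was 3 in Pou3f1 knockdown and 0 between Etv5 and Bcl6b knockdown, against 1.09% and 0.66% of genes. Median centring gave 3 between Etv5 and Bcl6b knockdown and 1 between Etv5 and Pou3f1 knockdown, against 2.32% and 1.27% of genes. With no intensity trend these counts were 0 and 1, against 1.52% and 1.37%. The cause was not tested. Over all genes the calls in Etv5, Bcl6b and Pou3f1 knockdown were 233, 358 and 251, against 1061, 1220 and 1268 without Bcl6b knockdown replicate 1, and 1662, 2082 and 1744 with array weights. Median centring moved the Bcl6b calls from 184 higher and 174 lower to 126 and 617.

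The groups share replicate numbers. Over 24 pairs of arrays with the same number, deviations from the group means correlated at -0.26 to 0.20 (median 0.06, 5 above 0.1). Over 72 pairs with other numbers they correlated at -0.29 to 0.20 (median -0.02, 11 above 0.1). Of 16 arrays, 6 correlated best with an array of their own number. These overlapping ranges do not settle if the numbers pair the samples. No label gives a pairing, and the main fit used none. With the replicate block 1 member was called between Etv5 and Pou3f1 knockdown in place of 2, against 1.18% of genes, and the other 5 counts were as without it.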
